A study of Homo sapiens with 6 samples.

Results

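SFN encodes 14-3-3 sigma, and YWHAB, YWHAE, YWHAG, YWHAH, YWHAQ and YWHAZ encode the beta, epsilon, gamma, eta, theta and zeta forms of the same human protein family. These 7 genes were taken by name, through the probe sets of the array that carried the symbol of 1 member and of no other gene. All 7 were among the 17841 genes that could be tested. RNA came from HCT116, an established human colorectal carcinoma line given in the sample titles as HCT116 +/+, and was measured on Affymetrix Human Exon 1.0 ST arrays. There were 2 arrays of cells treated with Nutlin-3 (Nutlin 3R in the labels), a blocker of MDM2 binding to p53, 2 arrays of cells treated with 5FU, a pyrimidine analogue, and 2 control arrays. Treatment lasted 12 h by the design text, which names DMSO for the control where the labels give no treatment. No source used here gives a dose, and nothing says that the arrays of a group came from separate cultures, so p-values measure only the spread between these arrays.

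The 14-3-3 proteins form dimers that bind other proteins at phosphorylated serines and threonines and thereby hold enzymes and transcription factors in the cytoplasm or shield them from other partners. Most of the family is made in nearly all cells, whereas 14-3-3 sigma is found mainly in epithelia. In colorectal cells SFN is a known target of p53, and its protein keeps the CDK1 and cyclin B1 complex out of the nucleus, which delays entry into mitosis after DNA damage.

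The sequence just before the SFN start is shown because SFN was the member that rose, and that of YWHAH because its mean was the lowest relative to control after Nutlin-3. Both are from RefSeq, build GRCh38.p14, 250 bases each, read 5′ to 3′ on the gene's own strand. Capitals mark matches, on either strand, to the GC box (GGGCGG) and to the TATA box motif (TATAAA).
SFN, chr1:26862899-26863148, plus strand: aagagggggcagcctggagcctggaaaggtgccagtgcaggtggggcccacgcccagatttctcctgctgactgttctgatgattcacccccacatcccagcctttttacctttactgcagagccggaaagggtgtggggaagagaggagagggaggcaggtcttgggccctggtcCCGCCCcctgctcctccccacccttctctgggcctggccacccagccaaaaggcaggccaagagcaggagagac
YWHAH, chr22:31944285-31944534, plus strand: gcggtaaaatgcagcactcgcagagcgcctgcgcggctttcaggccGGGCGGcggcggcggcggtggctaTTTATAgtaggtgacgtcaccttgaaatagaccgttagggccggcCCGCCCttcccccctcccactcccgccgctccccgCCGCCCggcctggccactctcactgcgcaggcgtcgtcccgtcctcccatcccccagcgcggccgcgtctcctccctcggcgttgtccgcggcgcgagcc
The SFN stretch held 3 CG dinucleotides and 1 GC box match, whereas that of YWHAH held 34 CG dinucleotides, 3 GC box matches and 1 TATA box match. The other members with an entry, YWHAB, YWHAE, YWHAG and YWHAQ, had between 21 and 29 CG dinucleotides, and the median over 35116 promoters was 11. The p53 half-site was read as RRRCWWGYYY (R is A or G, W is A or T, Y is C or T). No match to it was present in this window for the 6 members with an entry, and 5.57% of all promoters held one. Sites outside this window were not searched. A GC box match was present in 42.6% of all promoters, a TATA box match in 10.7% and a CCAAT box match (CCAAT, either strand) in 32%; among the members the last was seen in YWHAB (1 match) and YWHAQ (3 matches). These matches describe letters in a short window and say nothing about binding. YWHAZ is named only.

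All levels below are deposited log2 values from the RMA method, averaged over a gene's probe sets above a filter of 4.73, the median of all probe-set means. Array signals of different genes have no common scale, so each gene is compared only with itself. Across genes, pairs of arrays correlated at 0.92 to 0.981, and Nutlin-3 replicate 1 had the lowest mean correlation with the rest (0.941). Of 10 colonic epithelial markers 0 passed limma's adjusted threshold for either drug against control, with 1 at an unadjusted p below 0.05 for Nutlin-3 and 0 for 5FU. That 1 was KRT19, a keratin of simple epithelia read by 2 probe sets, with 10.08 and 9.89 with Nutlin-3, 9.61 and 9.59 with 5FU, and 9.26 and 9.53 in control (limma adjusted p = 0.181 for Nutlin-3). EPCAM, an epithelial adhesion protein, lay between 9.04 and 9.87 on the 6 arrays. KRT8, another such keratin, lay between 11.14 and 11.31 on the 6 arrays, and VIL1, the brush-border protein villin, between 5.71 and 5.85. Averaged over the 10, these markers lay between 8.16 and 8.24 with Nutlin-3, between 8.21 and 8.23 with 5FU and between 8.12 and 8.13 in control. The 8 keratinocyte markers, listed because SFN is abundant in keratinocytes, averaged 6.67 to 6.82 with Nutlin-3, 6.65 to 6.75 with 5FU and 6.71 to 6.79 in control, and 0 were called (0 at an unadjusted p below 0.05). The 7 fibroblast markers averaged 6.38 to 6.44 with Nutlin-3, 6.38 to 6.43 with 5FU and 6.31 to 6.5 in control, and the 6 blood markers averaged 6.58 to 6.81 with Nutlin-3, 6.42 to 6.55 with 5FU and 6.52 to 6.59 in control, with 0 called in each list (0 fibroblast and 1 blood marker per drug at an unadjusted p below 0.05). Their part in the results below was not tested. In bulk RNA a change in the RNA of each cell and a change in the kinds of cells present cannot be told apart.

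SFN rose after Nutlin-3 and was the 1 family member of 7 that limma called. Its log2 level was 11.14 and 11.07 on the Nutlin-3 arrays, against 9.90 and 9.70 on the control arrays. Both Nutlin-3 arrays lay above both control arrays, and the mean was 11.10 ± 0.05 with Nutlin-3 against 9.80 ± 0.15 in control (SD, n = 2 each). The log2 difference was 1.30 (95% interval 0.97 to 1.63), a 2.47-fold rise (limma, Benjamini-Hochberg adjusted p = 0.0128). It was the 25th highest of 17841 differences. Limma called 1.22% of all genes in this comparison, 0.359% as higher. The call was lost without control replicate 1 (limma adjusted p = 0.0553) and without Nutlin-3 replicate 1 (adjusted p = 0.072), at differences of 1.41 and 1.27.

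SFN also rose after 5FU, and again 1 of 7 members was called. Its log2 level was 11.59 and 11.49 on the 5FU arrays, against the same control values of 9.90 and 9.70. The groups did not overlap, with means of 11.54 ± 0.07 with 5FU and 9.80 ± 0.15 in control (SD, n = 2 each). The log2 difference of 1.74 (95% interval 1.41 to 2.07) was a 3.34-fold rise and the 13th highest of 17841 (limma, Benjamini-Hochberg adjusted p = 0.0137). Limma called 0.448% of all genes for 5FU against control, 0.331% as higher. The call was lost in all 4 fits that left out a control or 5FU array, at differences between 1.64 and 1.84. Leaving out a Nutlin-3 array, which removes none of the arrays compared here, kept the call.

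**Figure D1:**
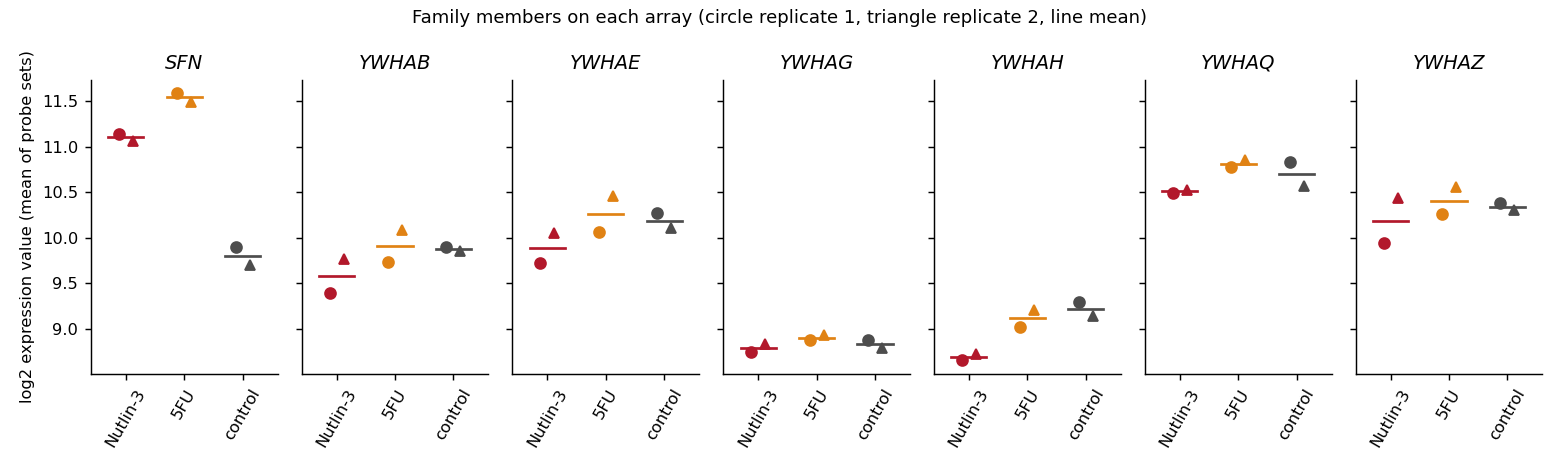
Log2 expression value (vertical axis, mean over a gene's probe sets) of each family member on the 6 arrays, by group, with replicate 1 as a circle, replicate 2 as a triangle and the group mean as a line; panels share an axis but are compared within a gene only. SFN lies between 11.07 and 11.59 on the 4 drug arrays and at 9.90 and 9.70 on the control arrays.

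The order of SFN was 5FU, Nutlin-3, control. The 5FU arrays lay above the Nutlin-3 arrays without overlap, and the difference of Nutlin-3 minus 5FU was -0.44 (95% interval -0.77 to -0.11), which did not pass the threshold (limma adjusted p = 0.25, unadjusted p = 0.016). Of the 7 members 0 were called between the drugs, where 0.633% of all genes were, 0.0617% as higher with Nutlin-3 and 0.572% as lower. At an unadjusted p below 0.05 there were 2 members, SFN and YWHAH, or 2 of 7, where 13.3% of all genes passed. The 2 drug comparisons share the control arrays and are not independent of each other.

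SFN was read by 6 probe sets, numbered 2326775 to 2326780, and all 6 were above the filter. After Nutlin-3 their log2 differences from control ran between 0.72 (2326775) and 1.78 (2326780), and after 5FU between 1.18 (2326775) and 2.39 (2326780). Each of the 6 had non-overlapping groups in both comparisons, where 32.2% of all tested probe sets did for Nutlin-3 and 35.2% for 5FU. The probe set 2326780 had 11.44 and 11.67 with Nutlin-3, 12.20 and 12.11 with 5FU, and 9.88 and 9.66 in control. The 2 brightest, 2326777 and 2326778, had differences of 1.23 and 1.21 after Nutlin-3 and of 1.65 and 1.45 after 5FU. All 6 were lower with Nutlin-3 than with 5FU, by 0.25 to 0.60. As single probe sets none of the 6 passed adjustment over 705699 probe sets (limma, lowest adjusted p = 0.111 for Nutlin-3 and 0.134 for 5FU), and all 6 were below 0.05 unadjusted for each drug. In that test limma called 0 probe sets for either drug against control (43352 for Nutlin-3 and 44222 for 5FU at an unadjusted p below 0.05) and 10 for Nutlin-3 minus 5FU.

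**Figure D2:**
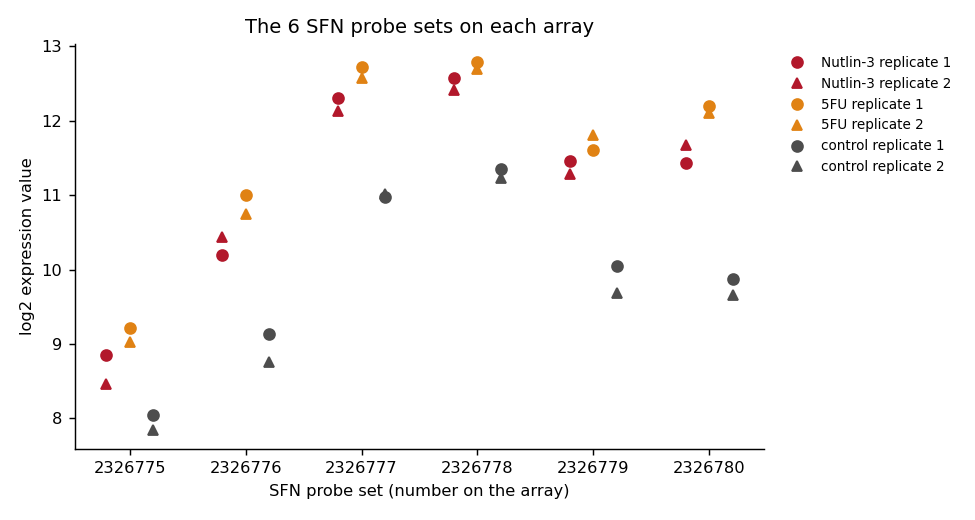
Log2 expression value (vertical axis) of each of the 6 SFN probe sets (horizontal axis, by array number) on the 6 arrays, coloured by group, with a circle for replicate 1 and a triangle for replicate 2. In every probe set the 4 drug values lie above both control values and both 5FU values lie above both Nutlin-3 values.

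YWHAH, the eta form, had the lowest mean relative to control after Nutlin-3 and did not pass the adjusted threshold. Its log2 level was 8.66 and 8.73 with Nutlin-3, 9.03 and 9.21 with 5FU, and 9.30 and 9.15 in control. Both Nutlin-3 values lay below the other 4 arrays, and the 5FU and control values overlapped. The log2 difference of Nutlin-3 minus control was -0.53 (95% interval -0.86 to -0.20, limma adjusted p = 0.193, unadjusted p = 0.00673), and that of 5FU minus control was -0.10 (-0.43 to 0.22, adjusted p = 0.915). Between the drugs the difference was -0.42 (-0.75 to -0.10, limma adjusted p = 0.264). Of its 9 probe sets, 8 had both Nutlin-3 arrays below both control arrays, where 32.2% of all tested probe sets had groups that did not overlap in either direction, and the lowest difference was -0.97. The exception, 3943208, had a difference of 0.10 and non-overlapping groups in the other direction.

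The other 5 members had intervals that included 0 in all 3 comparisons. YWHAB, the beta form, had 9.39 and 9.77 with Nutlin-3, 9.74 and 10.08 with 5FU, and 9.90 and 9.86 in control. Its differences from control were -0.30 (95% interval -0.73 to 0.13) with Nutlin-3 and 0.03 (-0.40 to 0.47) with 5FU. Its Nutlin-3 values lay below both control values, and its 5FU values lay on either side of them. YWHAE, the epsilon form, had 9.72 and 10.05 with Nutlin-3, 10.06 and 10.46 with 5FU, and 10.27 and 10.10 in control. Its differences from control were -0.30 (-0.75 to 0.14) with Nutlin-3 and 0.07 (-0.37 to 0.52) with 5FU. As in YWHAB, both Nutlin-3 values lay below both control values and the 5FU values lay on either side of them.

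YWHAQ, the theta form known from T cells, had 10.49 and 10.53 with Nutlin-3, 10.77 and 10.85 with 5FU, and 10.83 and 10.57 in control. Its difference was -0.19 (95% interval -0.53 to 0.15) with Nutlin-3 and 0.11 (-0.23 to 0.45) with 5FU. The narrow Nutlin-3 pair lay below every array of the other 2 groups. YWHAZ, the zeta form and a common reference gene in quantitative PCR, had 9.95 and 10.43 with Nutlin-3, 10.26 and 10.55 with 5FU, and 10.38 and 10.30 in control. All 3 groups overlapped, and the differences were -0.15 (-0.61 to 0.31) with Nutlin-3 and 0.07 (-0.40 to 0.53) with 5FU. YWHAG, the gamma form, had the narrowest range, with 8.75 and 8.84 with Nutlin-3, 8.88 and 8.93 with 5FU, and 8.89 and 8.79 in control. Its differences were -0.04 (-0.35 to 0.26) and 0.07 (-0.24 to 0.37), and its residual SD of 0.059 compares with a median of 0.161 over all genes.

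As a group the 6 YWHA genes had differences between -0.53 and -0.04 for Nutlin-3 minus control, all 6 below 0, with a median of -0.25 against 0.0006 over all genes. Under quantile normalization of the gene values YWHAG turned to 0.10. Without Nutlin-3 replicate 1, YWHAG (0.0008) and YWHAZ (0.09) were above 0, and without control replicate 1 YWHAG was (0.005). For 5FU minus control they ran between -0.10 and 0.11, 5 above 0 and 1 below, with a median of 0.07 against 0.001 over all genes, and YWHAB (-0.004) and YWHAZ (-0.002) turned under quantile normalization and YWHAG (-0.083) with the median of its probe sets. Without 5FU replicate 2, YWHAB (-0.14), YWHAE (-0.12) and YWHAZ (-0.08) were below 0, and without control replicate 2 YWHAE (-0.011) and YWHAQ (-0.017) were. Between the drugs all 6 were lower with Nutlin-3, by medians of -0.32 for the 6 and -0.005 for all genes, and YWHAG turned to 0.07 under quantile normalization and YWHAZ to 0.02 without Nutlin-3 replicate 1.

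Counting groups that did not overlap gave 5 of 7 members for Nutlin-3 against control, SFN higher and YWHAB, YWHAE, YWHAH and YWHAQ lower, where 34.2% of all genes did not overlap. For 5FU against control it gave 1 of 7, SFN, against 38% of all genes. For Nutlin-3 against 5FU it gave 5 of 7, all lower with Nutlin-3, against 46% of all genes. At an unadjusted p below 0.05 there were 2 members for Nutlin-3 (SFN and YWHAH) and 1 for 5FU (SFN), where 10.2% and 10.7% of all genes passed for Nutlin-3 and for 5FU.

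**Figure D3:**
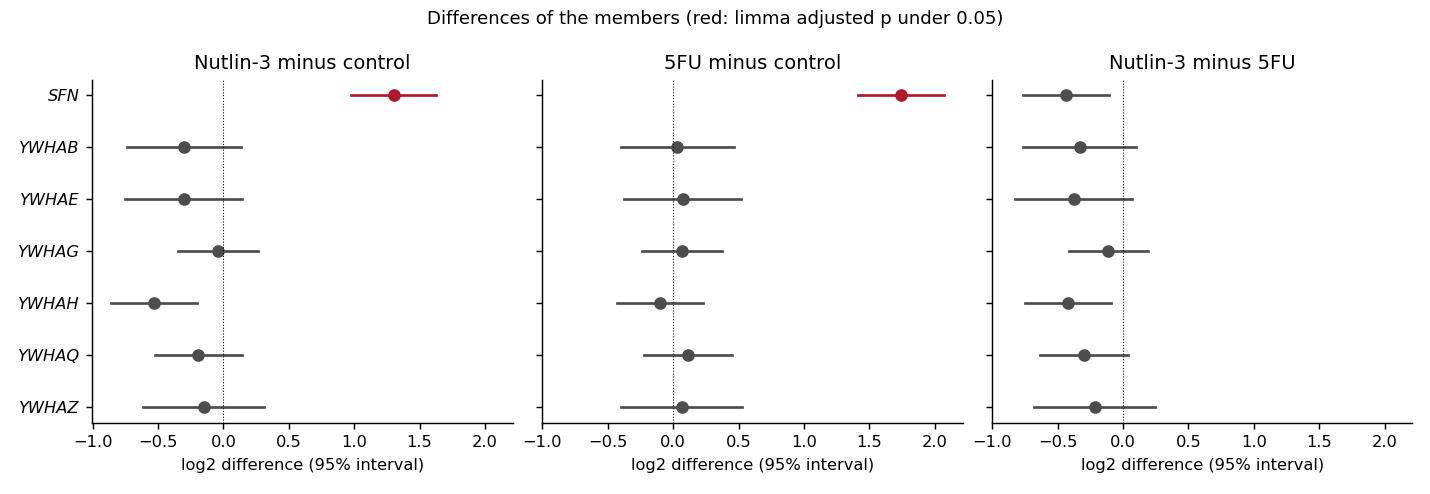
Log2 difference of each member (points) with its 95% interval (bars) in the 3 comparisons, with red for a limma adjusted p under 0.05. SFN stands at 1.30 after Nutlin-3 and 1.74 after 5FU, and the intervals of the YWHA genes include 0 except that of YWHAH with Nutlin-3 against control and against 5FU; some YWHA signs turn under other scalings.

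Within each group the 6 YWHA genes shared 1 order of the replicates, and SFN did not always have it. In control all 6 YWHA genes were higher on replicate 1, and with Nutlin-3 and with 5FU all 6 were higher on replicate 2. The array median over all tested genes had the same order in each group. On replicates 1 and 2 it was 7.06857 and 6.99968 in control, 6.98361 and 7.07442 with Nutlin-3, and 7.02895 and 7.08906 with 5FU. The array median over all probe sets had the opposite order in each group. Whether the YWHA genes differ from other genes in this order was not tested. SFN was higher on replicate 1 in each of the 3 groups, by 0.07 with Nutlin-3, 0.10 with 5FU and 0.21 in control. Averaged over the 6 YWHA genes and set against their control means, Nutlin-3 replicate 1 stood at -0.37 and Nutlin-3 replicate 2 at -0.14, while 5FU replicate 1 stood at -0.07 and 5FU replicate 2 at 0.15. The control arrays stood at 0.07 and -0.07. On the same scale SFN stood at 1.34 and 1.27 with Nutlin-3, 1.79 and 1.69 with 5FU, and 0.10 and -0.10 in control. SFN thus stood above the YWHA mean by 1.71 and 1.40 on the Nutlin-3 arrays and by 1.86 and 1.54 on the 5FU arrays, against 0.04 and -0.04 on the control arrays. When both control replicate 2 and Nutlin-3 replicate 1 were dropped, which was decided after seeing the data, YWHAZ stood at 0.05 for Nutlin-3 minus control, and SFN at 1.16 was called.

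The probe sets of a YWHA gene lay on both sides of 0. In YWHAB, 13 of 18 probe sets were above the filter, and their differences after Nutlin-3 ran between -0.76 and 0.42, with 11 below 0. The highest, 3886645, had 8.47 and 8.09 with Nutlin-3 against 7.91 and 7.82 in control. In YWHAE, 14 of 16 were below 0 after Nutlin-3, in YWHAQ 12 of 14, in YWHAZ 25 of 33 and in YWHAG 3 of 5. After 5FU, 6 of 13 in YWHAB, 7 of 16 in YWHAE, 1 of 5 in YWHAG, 7 of 9 in YWHAH, 5 of 14 in YWHAQ and 14 of 33 in YWHAZ were below 0. Of the 96 used probe sets of the family 0 were called in any comparison. At an unadjusted p below 0.05 there were 12 for Nutlin-3, 8 for 5FU and 10 for Nutlin-3 minus 5FU, of which SFN gave 6, 6 and 1. Over all probe sets the shares at that level were 6.14% for Nutlin-3, 6.27% for 5FU and 7.39% for Nutlin-3 minus 5FU.

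**Figure D4:**
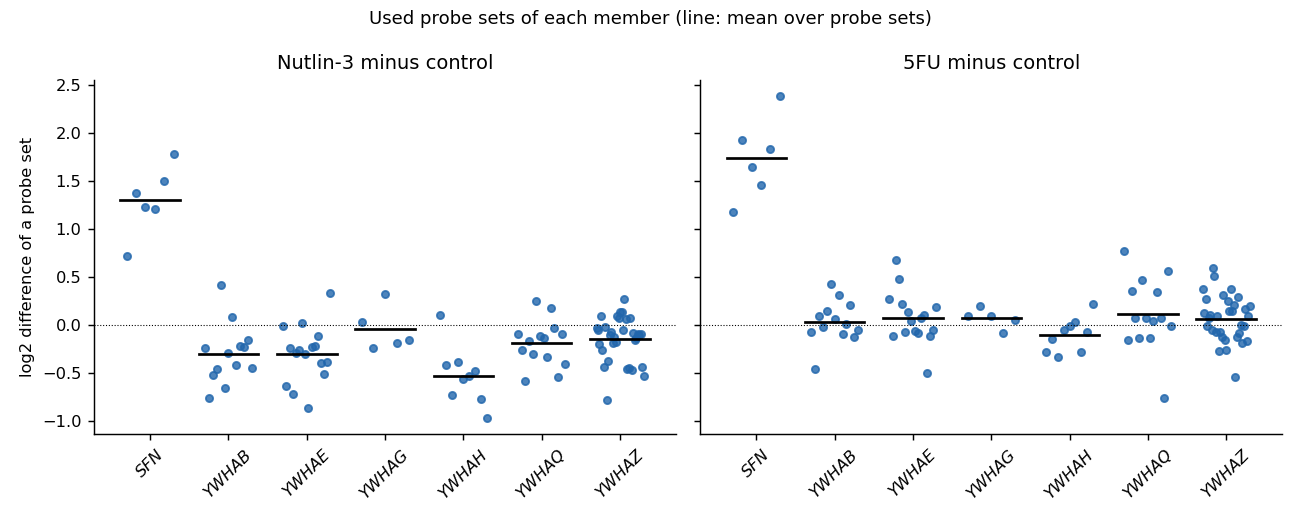
Log2 difference of each used probe set (points) of the 7 members for Nutlin-3 minus control and 5FU minus control, with a line at the mean over a gene's probe sets. The 6 SFN points lie between 0.72 and 1.78 after Nutlin-3 and between 1.18 and 2.39 after 5FU, while those of the YWHA genes lie on both sides of 0.

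Several members have processed copies in the genome; whether probe sets read them was not tested. The RefSeq gene table names 10 pseudogenes after YWHAZ, 10 after YWHAQ, 7 after YWHAE and 2 after YWHAB, and 0 after SFN, YWHAG and YWHAH. The numbers of 11 of 33 used YWHAZ probe sets, 2 of 16 of YWHAE and 2 of 14 of YWHAQ lay over 1000 away from the gene's largest run of probe-set numbers. In YWHAZ the 11 averaged -0.20 after Nutlin-3 and 0.07 after 5FU, and the 22 of the largest run -0.13 and 0.06. In YWHAQ the 2 averaged -0.25 and 0.27, against -0.18 and 0.08 in the run of 12, and in YWHAE -0.33 and 0.08 against -0.30 and 0.07 in the run of 14. With the outlying probe sets left out, a choice made after the data were seen, 0 YWHA genes were called.

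Genes of entry into mitosis, the step that 14-3-3 sigma delays, were read beside the family. Of 27 listed genes of this machinery and its brakes 26 were measured, and after Nutlin-3 limma called 12 of them, with 3 higher and 9 lower than in control (0.359% of all genes were called higher and 0.858% lower). The list's median log2 difference was -0.85, against 0.0006 over all genes. CDKN1A, which encodes the p21 inhibitor of cyclin-dependent kinases, rose 4.27-fold (limma adjusted p = 0.00308). The brakes did not all rise. WEE1, a kinase that inhibits CDK1, fell 2.42-fold (limma adjusted p = 0.0236) and was picked after its values were seen. MASTL, the kinase that restrains a phosphatase opposing CDK1, fell 4.32-fold (limma adjusted p = 0.0297), CDC25A, a phosphatase that activates cyclin-dependent kinases, fell 4.02-fold (adjusted p = 0.0099), and CCNA2, cyclin A2, fell 3.62-fold (adjusted p = 0.0158). With control replicate 1 left out, 1 of these calls was made, with control replicate 2 left out 4, and with Nutlin-3 replicate 1 left out 2.

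After 5FU 4 of the 26 were called, 3 higher and 1 lower, and the median was -0.09. Of all genes 0.331% were called higher and 0.118% lower. CDKN1A rose 3.43-fold (limma adjusted p = 0.00751), the antiproliferative gene BTG2 rose 3.03-fold (adjusted p = 0.0225) and GADD45A, a stress sensor that can inhibit CDK1, rose 2.69-fold (adjusted p = 0.0313). PLK1, the kinase that promotes mitotic entry, fell 2.67-fold (limma adjusted p = 0.026). This count was 0 without either control array or either 5FU array, with 11 or 12 at an unadjusted p below 0.05 in those fits, and it was 8 with arrays centred and 9 with quantile normalization. Between the drugs 4 were called, all lower with Nutlin-3, where 0.572% of all genes were called lower and 0.0617% higher. They were CDC25A (5.37-fold), MASTL (4.64-fold), CCNA2 (3.16-fold) and FOXM1, a transcription factor for G2 genes (2.43-fold). Their limma adjusted p values were 0.00944, 0.0417, 0.0342 and 0.0442. That count was 2 without either control array or Nutlin-3 replicate 2, 1 without 5FU replicate 1 and 0 without Nutlin-3 replicate 1 or 5FU replicate 2. It was 7 with arrays centred or quantile normalized, 2 with all probe sets or only the 2 drug groups, and 1 with the median of probe sets. CCNB1, cyclin B1, was chosen after its values were seen, as the partner held back by 14-3-3 sigma. It differed by -1.20 for each drug and did not pass (limma adjusted p = 0.0758 for Nutlin-3 and 0.114 for 5FU).

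**Figure D5:**
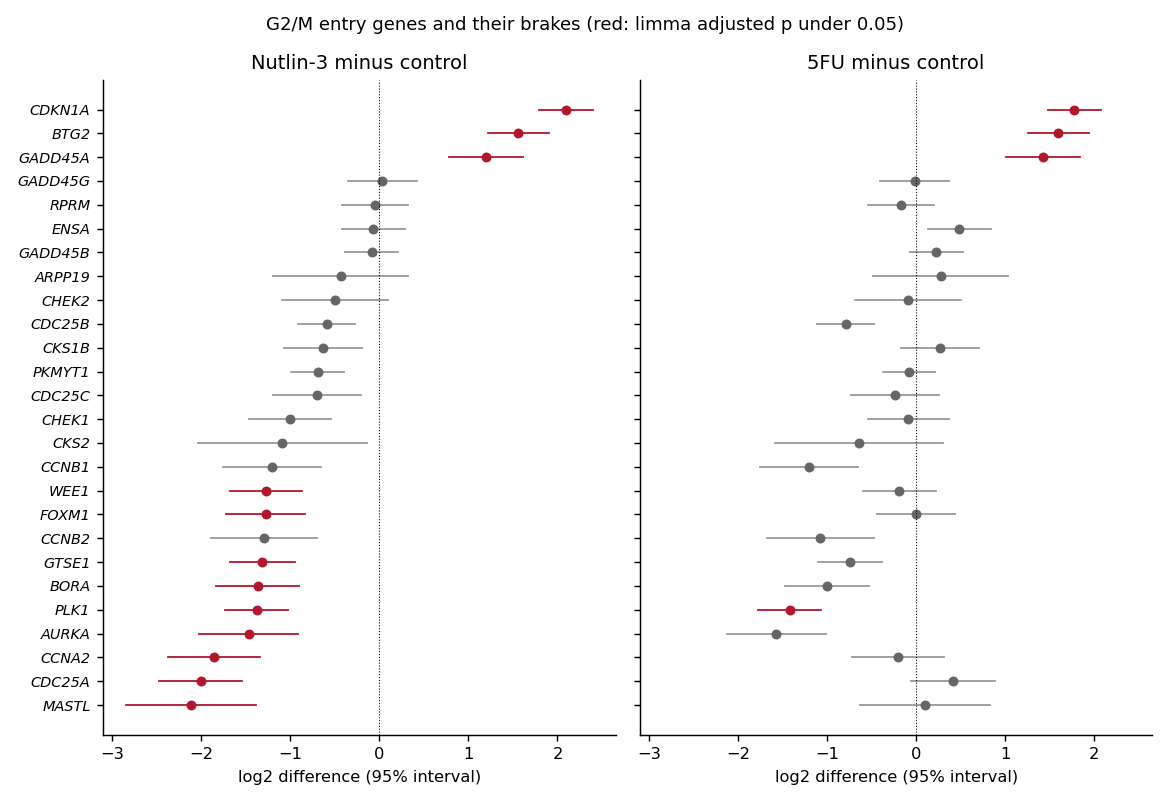
Log2 difference (points) with its 95% interval (bars) of the 26 measured genes of mitotic entry and its brakes, for Nutlin-3 minus control and 5FU minus control, with red for a limma adjusted p under 0.05. Among called genes CDKN1A, BTG2 and GADD45A are higher in both panels. In the Nutlin-3 panel 9 are lower, the brake WEE1 among them, and in the 5FU panel PLK1 alone is lower.

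Of 45 listed proteins that 14-3-3 dimers bind, 43 were measured, and 0 were called by limma for Nutlin-3 or for 5FU against control, with 5 and 6 at an unadjusted p below 0.05, where 10.2% of all genes passed for Nutlin-3 and 10.7% for 5FU. For Nutlin-3 the call count was 1 with upper-quartile probe sets, and for 5FU it was 1 with those, 2 with arrays centred on their medians and 2 with quantile normalization. The medians were -0.03 for Nutlin-3 and 0.04 for 5FU. TNFAIP3, the ubiquitin-editing enzyme A20, differed from control by -0.06 with Nutlin-3 and by 0.95 with 5FU (limma adjusted p = 0.954 and 0.0687). Its level was 5.84 ± 0.04 with Nutlin-3, 6.85 ± 0.14 with 5FU and 5.90 ± 0.17 in control (SD, n = 2 each). Between the drugs it was the 1 gene called, 2.02-fold lower with Nutlin-3 (limma adjusted p = 0.0462). It was not called when any 1 of 6 arrays was left out, and 0 of the list were called with all probe sets, upper-quartile probe sets, the median of probe sets or only the 2 drug groups in the fit, against 2 with arrays centred or quantile normalized. CDC25C, the phosphatase whose binding by 14-3-3 proteins was among the first described, was chosen after its values were seen. It differed by -0.70 (95% interval -1.19 to -0.20) with Nutlin-3 and by -0.23 (-0.73 to 0.26) with 5FU. Neither passed (limma adjusted p = 0.272 for Nutlin-3 and 0.834 for 5FU).

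Of 7 listed regulators of 14-3-3 sigma, all were measured, and BRCA1, which can activate the SFN promoter together with p53, was the 1 called for Nutlin-3 against control, where 1.22% of all genes were. It fell 2.85-fold, to 6.25 ± 0.38 with Nutlin-3 against 7.76 ± 0.20 in control (SD, n = 2 each, limma adjusted p = 0.0309), and was not called without control replicate 1, control replicate 2 or Nutlin-3 replicate 1. The list's count was also 0 with all probe sets of a gene or the median of them, and 2 with upper-quartile probe sets, at least 4 probe sets, arrays centred or quantile normalization. For 5FU against control limma called 0, with 1 of 7 at an unadjusted p below 0.05, where 10.7% of all genes passed. Between the drugs limma called 0, with 3 of 7 at that level, where 13.3% of all genes passed. Between the drugs the call count was 1 with upper-quartile probe sets, arrays centred or quantile normalization. The list's medians were -0.09 with Nutlin-3, -0.02 with 5FU and -0.10 between the drugs.

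The 6 genes whose profile over the 6 arrays was most like that of SFN, among 16874 others with at least 3 used probe sets, were TRIML2, BTG2, AKR1B10, GADD45A, PLCXD2 and GALNT5. Likeness was the root mean square distance between log2 values after each gene's control mean was subtracted, and it ran between 0.187 for TRIML2 and 0.227 for GALNT5, against a median of 1.27 over all genes compared. These genes were chosen for this profile on the same arrays, so their direction with each drug, and being no higher with Nutlin-3 than with 5FU, follows largely from the choice and is given as a description. The differences from control were 1.05 with Nutlin-3 and 1.74 with 5FU in TRIML2, 1.18 and 1.76 in the aldo-keto reductase gene AKR1B10, 1.20 and 1.65 in PLCXD2, and 1.63 and 1.77 in the glycosyltransferase gene GALNT5. BTG2 had 1.56 with Nutlin-3 and 1.60 with 5FU, and GADD45A 1.20 with Nutlin-3 and 1.43 with 5FU.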

How the data were processed

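The authors deposited log2 values per probe set, made with RMA per the submitters' processing notes, with no version, setting or genome build given there. RMA normalizes between arrays, so shifts common to all probe sets are largely removed. The 6 arrays hold 1411399 probe sets, of which 357604 have 1 gene symbol in the platform annotation, 15322 several and 1038473 none; 2966 of 19560 symbols were updated through the RefSeq table. A gene's value was the mean of its probe sets whose mean over 6 arrays exceeded 4.73, with at least 2 required, which left 17841 genes. Limma 3.58.1 in R 4.3.3 fitted the 3 groups together (3 residual degrees of freedom), with eBayes. Benjamini-Hochberg adjustment ran over all genes, with calls at 0.05. The script was tested on simulated data with independent noise for each gene and array. That test does not cover replicate differences shared by many genes. With 2 arrays a group, their number limits the precision. Array medians lay between 4.73 and 4.78 over all probe sets. Over the tested genes they lay between 6.98 (Nutlin-3 replicate 1) and 7.09 (5FU replicate 2).

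The members, lists and tests were chosen with earlier results of these data known. Named were all 7 members, up to 4 called genes with the largest difference per list and comparison, the 6 genes most like SFN and the 2 genes on either side of it. Alternatives covered the probe-set filter and summary, scaling, variance model, arrays in the fit and a replicate block. CDK1 is under an older symbol in the annotation and was not analysed here. The labels and the design text differ on the control treatment and on the RNA kit.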

Additional observations from a re-analysis of the deposited data

How the results depend on the processing

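SFN was above control after both drugs in every setting run. Over 15 planned settings its difference ran between 1.20 and 1.64 for Nutlin-3 (called in 12) and between 1.64 and 2.11 for 5FU (called in 10). For Nutlin-3 minus 5FU it ran between -0.49 and -0.31 (called in 0). In each comparison 3 of the 15 were the same fit: only the 2 groups compared, and without either array of the third group. The call counts thus hold that fit 3 times. The planned fit with the replicate number as a block left SFN at 1.30 (limma adjusted p = 0.0637) and 1.74 (0.113), with 0 members called, and 2, 1 and 0 genes called for Nutlin-3, 5FU and Nutlin-3 minus 5FU (1441, 1444 and 1821 at an unadjusted p below 0.05), and 0 genes of the 3 lists in any comparison. Nothing says whether the shared numbers pair the arrays. Replicate differences correlated at -0.56 between control and Nutlin-3, -0.52 between control and 5FU and 0.63 between the drugs. With the numbers crossed, a fit chosen after seeing the data, 2, 1 and 3 members and 1788, 1882 and 2821 genes were called, SFN among them at -0.44 between the drugs. Leaving out 1 array, SFN ran between 1.20 and 1.41 for Nutlin-3 and between 1.64 and 1.84 for 5FU, members called between 0 and 1 for each, and genes called between 5 and 149 for Nutlin-3, 1 and 63 for 5FU and 3 and 104 for Nutlin-3 minus 5FU. Genes called for Nutlin-3 were 380 with upper-quartile probe sets, 381 with arrays centred and 514 with quantile normalization, against 217. For 5FU they were 151, 177 and 242, and 39 with the median of probe sets, against 80. For Nutlin-3 minus 5FU they were 234, 297 and 416, and 69 with the median or with all probe sets, against 113. Single probe sets gave 0, 0 and 10 calls and 0 members. With control replicate 2 and also Nutlin-3 replicate 1 left out, added after seeing the data, 580, 592 and 650 genes were called. The cause of these shifts was not tested.

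The signs that turned were all of YWHA differences that were not called. For Nutlin-3 YWHAG was 0.099 under quantile normalization and between -0.092 and 0.0051 leaving out 1 array, and YWHAZ was between -0.39 and 0.090, and 0.051 without both arrays named above. For 5FU YWHAG was -0.083 with the median of probe sets, YWHAB -0.0037 and YWHAZ -0.0024 under quantile normalization, and without both arrays YWHAE was -0.011 and YWHAQ -0.017. Leaving out 1 array, the 5FU differences ran between -0.14 and 0.20 for YWHAB, -0.12 and 0.27 for YWHAE, -0.017 and 0.24 for YWHAQ, and -0.080 and 0.21 for YWHAZ. For Nutlin-3 minus 5FU YWHAG was 0.070 under quantile normalization, and YWHAZ ran between -0.46 and 0.025 leaving out 1 array and was 0.025 without both.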

Other observations

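The measured genes next to SFN on chromosome 1 did not pass the threshold for either drug. ZDHHC18, a palmitoyltransferase gene on one side, differed by -0.11 (95% interval -0.41 to 0.19) for Nutlin-3 minus control and by 0.18 (-0.12 to 0.48) for 5FU minus control. GPN2, a GTPase gene on the other side, differed by 0.13 (-0.17 to 0.44) for Nutlin-3 minus control and by 0.16 (-0.15 to 0.46) for 5FU minus control. The outer neighbours, RN7SL165P and GPN2-AS1, were not analysed here.

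There were 3 probe sets annotated to both YWHAE and PAFAH1B1, and they were not used for either gene. The one that varied most had 10.69 and 11.96 with Nutlin-3, 11.89 and 12.32 with 5FU, and 11.89 and 11.70 in control. Its value on Nutlin-3 replicate 1 was the lowest of the 6 arrays.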
